A study of Mus musculus with 6 samples.

Results

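The antiviral effectors described here are 4 interferon-induced genes whose products act on or with nucleotides and nucleic acids, Rsad2 (viperin), Cmpk2, Isg20 and Samd9l. They, and the gene lists below, were chosen with earlier results of these data known, so their counts beside all genes are descriptions. Probe sets were taken by symbol: every one that the platform annotation assigns to one of these 4 names. This gave 7 probe sets, 3 for Rsad2, 2 for Cmpk2 and 1 each for Isg20 and Samd9l. The 4 genes are among 18193 that have a probe set with a single symbol. All 7 probe sets were bright enough to be tested, as were those of 12808 genes (27022 probe sets) in all.

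Viperin is a radical SAM enzyme, an iron-sulfur protein that uses S-adenosylmethionine to turn CTP into ddhCTP, a nucleotide that ends the RNA chains made by some viral polymerases. Cmpk2 is a nucleoside monophosphate kinase of mitochondria that supplies CTP and deoxynucleotides, and its gene lies beside that of viperin. Isg20 is a 3' to 5' exonuclease of the DEDD superfamily, to which Trex1 also belongs, and degrades single-stranded RNA. Samd9l is a cytosolic protein that restricts poxviruses and some retroviruses, and its human counterpart is linked to inherited ataxia with pancytopenia. In most tissues all 4 genes are low at rest and are induced by type I interferon.

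The samples were heart ventricles of 3 Trex1 KO and 3 Trex1 WT mice, all of them also RAG2 KO, hybridised to 1 array per animal. The Rag2 deletion was thus carried by both groups, and mature T and B cells do not form without Rag2. Each Trex1 KO animal had a Trex1 WT littermate, which gave pairs A, B and C. The labels used here state no age, strain or treatment, nor how either allele was made. The values were MAS5 signals on a linear scale, and the number of arrays limits their precision. Trex1, the major 3' DNA exonuclease of the cytosol, had signals of 9.45, 20.6 and 34.2 in the Trex1 KO animals (pairs A, B and C), against 714, 340 and 887 in their Trex1 WT littermates, on a probe set annotated to Atrip and Trex1 together. The labels do not say whether that probe set lies in the deleted part. Rag2 itself was dim, with 76.2 ± 18.7 in Trex1 KO and 51.5 ± 38.8 in Trex1 WT (SD, n = 3 each), near the 69.8 that the brightest of 27 bacterial control probe sets reached.

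The arrays of the groups differed in RNA quality measures. The 3' to 5' ratio of Actb was 1.66, 1.60 and 1.68 in Trex1 KO animals A, B and C, against 2.09, 2.29 and 1.80 in Trex1 WT animals A, B and C, with no overlap. The 18S signal was 2834, 1907 and 798 in the Trex1 KO animals, against 12811, 13708 and 924 in the Trex1 WT animals, so littermates of pair C were the closest on both measures. All 8 markers of ventricular cardiomyocytes lay above the bacterial controls on every array.

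The stretches before the transcription starts of Rsad2 and Cmpk2 are shown first, since the genes are neighbours and both rose. RefSeq's promoter windows (GRCm38.p6, 250 bases before to 50 after a start) were searched on both strands for paired GAAA half-sites, the core of the interferon-stimulated response element, with a spacing of 2 bases (GAAANNGAAA) or 3 bases (GAAANNNGAAA). Capitals mark a match, and a match on the strand opposite to the gene reads as TTTC. For Rsad2 and Cmpk2 the 250 bases up to the start are given, and for Samd9l 30 bases after it that hold its match.

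Rsad2, chr12:26456453-26456702, minus strand: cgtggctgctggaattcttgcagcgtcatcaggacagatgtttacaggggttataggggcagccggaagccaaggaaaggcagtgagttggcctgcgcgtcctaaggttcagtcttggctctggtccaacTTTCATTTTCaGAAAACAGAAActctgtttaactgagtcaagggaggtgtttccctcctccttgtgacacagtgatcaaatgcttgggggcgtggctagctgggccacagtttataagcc

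Cmpk2, chr12:26468965-26469214, plus strand: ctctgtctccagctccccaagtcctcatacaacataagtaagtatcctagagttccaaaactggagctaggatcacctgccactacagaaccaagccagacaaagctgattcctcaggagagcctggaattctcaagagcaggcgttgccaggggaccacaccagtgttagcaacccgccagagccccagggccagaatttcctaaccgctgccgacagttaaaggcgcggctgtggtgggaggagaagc

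Samd9l, chr6:3399522-3399551, minus strand: gtatcagaatcGAAACTGGAAActgaagca

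The Rsad2 window held both motifs side by side, the shorter spacing on the opposite strand 120 to 111 bases before the start and the longer spacing on the gene's own strand 109 to 99 bases before it. Samd9l held the longer spacing on its own strand, 32 to 42 bases into the transcript. The Cmpk2 window and the 3 windows of Isg20 held neither. GAAANNGAAA was present in 3.44% and GAAANNNGAAA in 2.75% of 32851 promoter windows of the same length, and 5.99% held either. These are matches of letters, and no match says only that these letters are not in this window.

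All 4 genes had higher signals in Trex1 KO hearts than in Trex1 WT hearts. On each of the 7 probe sets the lowest Trex1 KO array lay above the highest Trex1 WT array, which was the case for 5.57% of the 27022 probe sets tested. Rsad2 and Cmpk2 rose on all 5 of their probe sets (limma, Benjamini-Hochberg adjusted p under 0.05 over all probe sets), where 0.218% of all probe sets rose. Isg20 and Samd9l were higher by 0.96 and 0.90 on the log2 scale, short of the threshold (limma adjusted p = 0.205 and 0.0578). When each Trex1 KO animal was compared with its own littermate, the pair entering the fit as a block, all 7 probe sets passed, where 0.389% of all probe sets rose. Taking the brightest probe set of each gene, the members that rose were 2 of 4 without the block and 4 of 4 with it, where 0.312% and 0.531% of all genes rose. When the Actb ratio entered the fit, 0 of the 7 passed in limma, with log2 differences of 1.06 to 2.13 and adjusted p-values of 0.0687 to 0.501. In that fit 8 of all 27022 probe sets rose, against 59 without the ratio. Within pairs A, B and C the log2 differences of the brightest probe sets were 1.55, 1.58 and 1.87 for Rsad2 and 1.04, 0.59 and 1.08 for Cmpk2. For Isg20 they were 0.60, 0.92 and 1.35, and for Samd9l 0.97, 0.86 and 0.87. The littermates of pair C were closest in Actb ratio and 18S signal, but each pair is a single animal per group. The part of RNA quality in these differences was not tested.

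**Figure D1:**
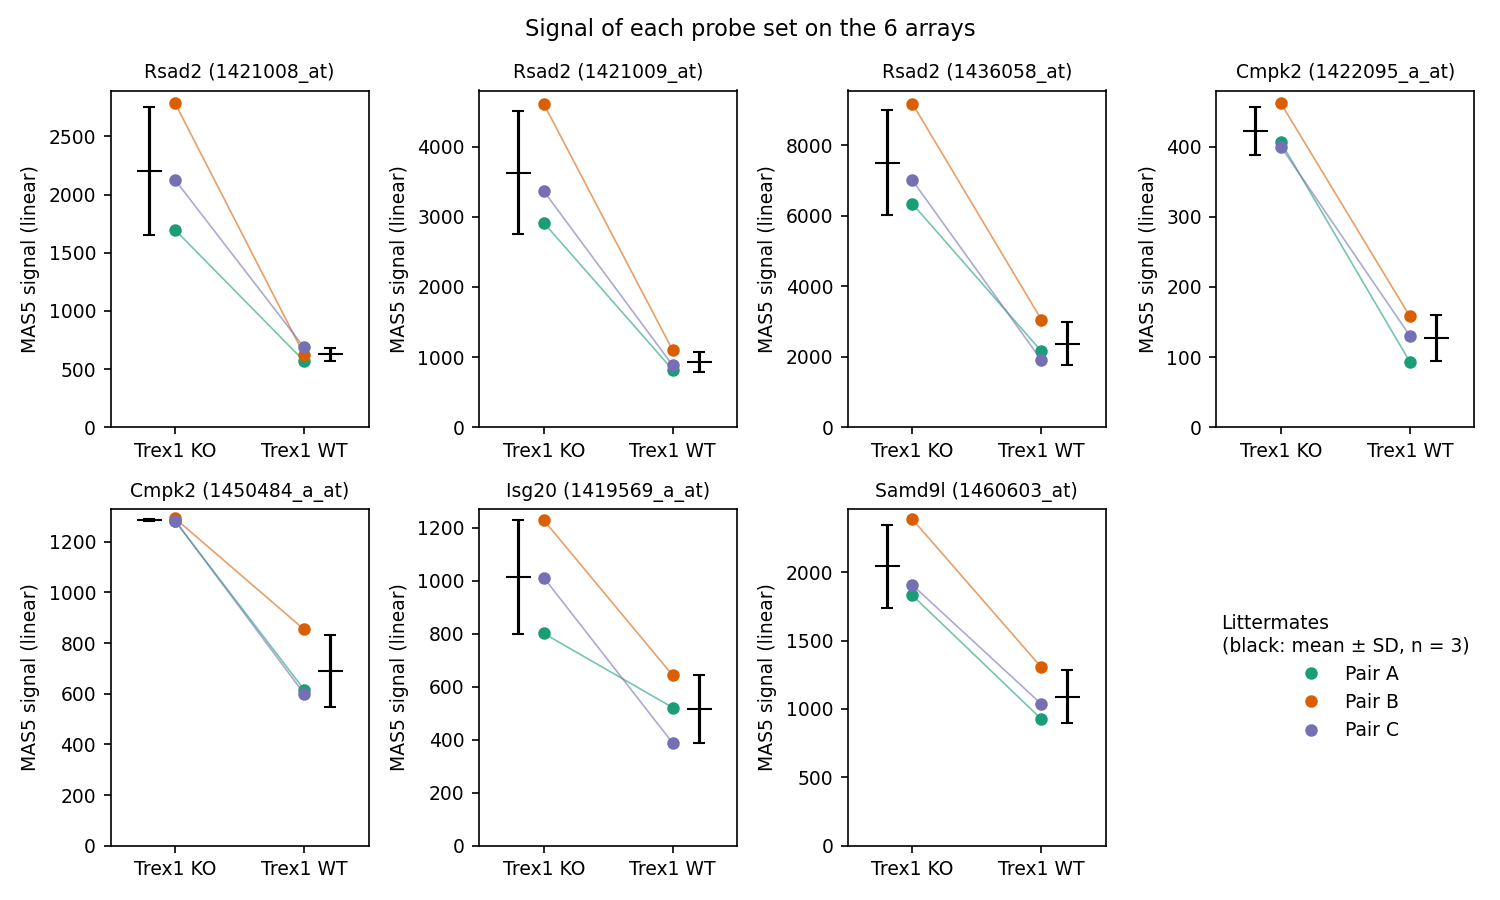
MAS5 signal (linear axis from 0) of the 7 probe sets in Trex1 KO (left of each panel) and Trex1 WT hearts, with lines joining littermates and black marks for the mean ± SD of 3 animals. Every Trex1 KO point lies above every Trex1 WT point of its panel, and pair B (orange) is highest among Trex1 KO animals on all 7 probe sets.

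Rsad2 had the largest difference of the 4 genes by brightest probe set. Its brightest probe set (1436058_at) had signals of 6344, 9189 and 7013 in Trex1 KO animals A, B and C, against 2160, 3056 and 1906 in Trex1 WT animals A, B and C. The animals of pair B were highest in both groups, and even the lowest Trex1 KO signal was above the highest Trex1 WT signal. The means were 7515 ± 1488 in Trex1 KO and 2374 ± 604 in Trex1 WT (SD, n = 3 each), a 3.18-fold difference on the log2(signal + 16) scale (log2 1.67, SE 0.18, limma adjusted p = 0.00382; with the block, 8.06e-05). By this difference Rsad2 ranked 27 among the 12808 genes.

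The other probe sets of viperin rose as well. Probe set 1421009_at had 2916, 4611 and 3367 in Trex1 KO animals A, B and C, against 817, 1096 and 880 in Trex1 WT animals A, B and C (log2 1.93, SE 0.17, limma adjusted p = 0.00102). Probe set 1421008_at had 1696, 2784 and 2125 in Trex1 KO animals A, B and C, against 568, 623 and 686 in Trex1 WT animals A, B and C (log2 1.76, SE 0.17, limma adjusted p = 0.00163). The annotation gives these probe sets the same source transcript, and the brightest another. The responses of the 3 probe sets differed from each other by at most 0.26 on the log2 scale; 3 arrays against 3 are too few for an exact permutation test to pass the threshold, so whether they differ is not settled. Within littermate pairs the Rsad2 log2 difference lay between 1.55 and 2.13 over all 3 probe sets and pairs. All 3 probe sets kept their calls when any single array was left out (limma adjusted p up to 0.0281). The brightest lost it without both animals of pair A or of pair C, when 2 arrays a group remained (limma adjusted p = 0.116 and 0.0819), and without the intensity trend in eBayes (0.122).

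Cmpk2, the mitochondrial kinase beside viperin, rose on both of its probe sets, by unequal amounts. The brighter one (1450484_a_at) had 1281, 1292 and 1283 in Trex1 KO animals A, B and C, against 616, 853 and 600 in Trex1 WT animals A, B and C. The Trex1 KO animals were nearly equal, whereas Trex1 WT B stood above the other two Trex1 WT animals. The means were 1285 ± 5.61 in Trex1 KO and 690 ± 142 in Trex1 WT (SD, n = 3 each), 1.87-fold on the log2(signal + 16) scale (log2 0.90, SE 0.15, limma adjusted p = 0.0483, and 0.0204 with the block). This call was lost when any array other than Trex1 WT B was left out (limma adjusted p of 0.104 to 0.247) and passed at 0.00416 without Trex1 WT B.

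The dimmer Cmpk2 probe set (1422095_a_at) had 406, 462 and 400 in Trex1 KO animals A, B and C, against 93.0, 158 and 130 in Trex1 WT animals A, B and C. These are the lowest signals of the 7 probe sets, and all of them lay above the highest bacterial control. The difference was 1.64 (SE 0.21, limma adjusted p = 0.00983, and 0.00644 with the block), 3.12-fold on the log2(signal + 16) scale. It was lost without any 1 of the Trex1 KO arrays (limma adjusted p of 0.0679 to 0.0842). The ratio of the dimmer to the brighter probe set was higher in every Trex1 KO animal than in every Trex1 WT animal, by 0.74 on the log2 scale (exact permutation p = 0.1, two-sided, the smallest that 3 against 3 can give, so the test could not pass; 0.4 adjusted over the 4 pairs of probe sets compared). Both are assigned to the same source transcript, and their names mark them as matching alternative transcripts of the gene. The mean of both passed, with a log2 difference of 1.27 (limma adjusted p = 0.0129).

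Isg20, the exonuclease, was higher in all 3 Trex1 KO animals, with the widest spread between pairs. Its probe set (1419569_a_at) had 802, 1229 and 1013 in Trex1 KO animals A, B and C, against 522, 643 and 388 in Trex1 WT animals A, B and C. The groups did not overlap, and Trex1 KO A and Trex1 WT B were the closest animals across them. The means were 1015 ± 214 in Trex1 KO and 517 ± 128 in Trex1 WT (SD, n = 3 each), and the log2 difference of 0.96 did not pass (SE 0.21, limma adjusted p = 0.205). It passed with littermate pairs as a block (adjusted p = 0.0382). Within pairs A, B and C the log2 differences were 0.60, 0.92 and 1.35. No single array left out brought it past the threshold (limma adjusted p of 0.0582 to 0.705).

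Samd9l had the most even difference between pairs. Its probe set (1460603_at) had 1831, 2387 and 1906 in Trex1 KO animals A, B and C, against 926, 1305 and 1036 in Trex1 WT animals A, B and C. Pair B was highest in both groups, and each Trex1 KO animal had 1.83 to 1.98 times the signal of its littermate. The means were 2042 ± 302 in Trex1 KO and 1089 ± 195 in Trex1 WT (SD, n = 3 each). The log2 difference of 0.90 missed the threshold (SE 0.15, limma adjusted p = 0.0578) and passed with littermate pairs as a block (SE 0.09, adjusted p = 0.00327). It also passed without Trex1 WT B (limma adjusted p = 0.0129) and with a pseudocount of 64 (0.0486).

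**Figure D2:**
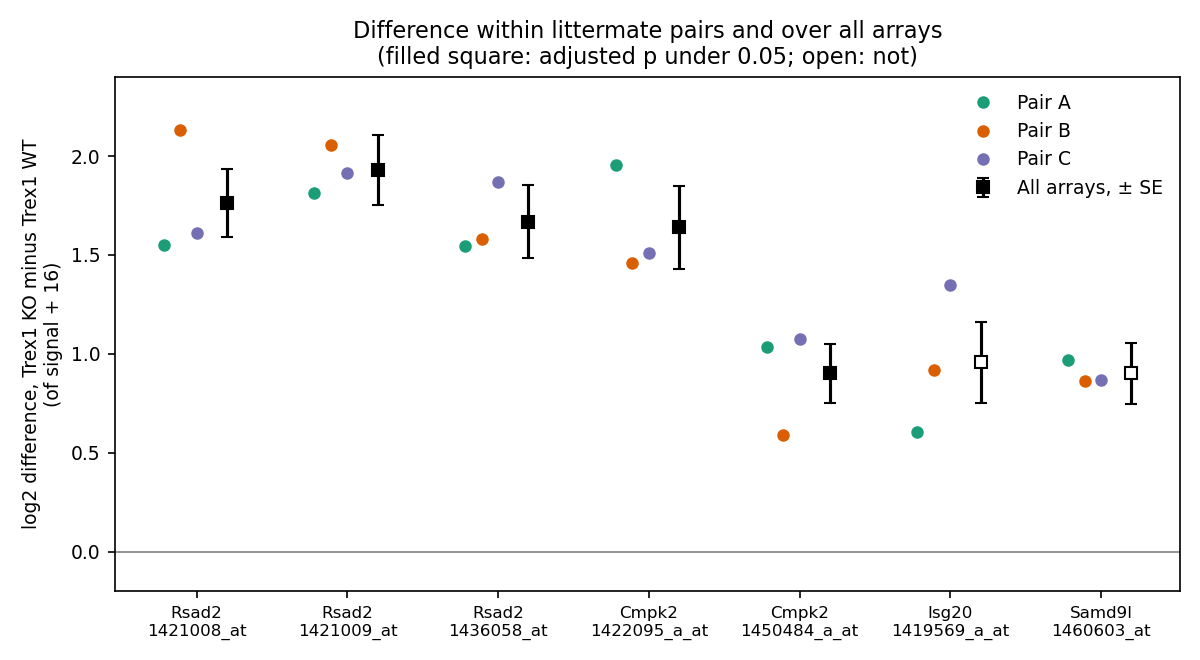
Log2 difference of signal + 16, Trex1 KO minus Trex1 WT, for each probe set: coloured points are littermate pairs A, B and C, and squares are the difference over all arrays ± SE, filled where the limma adjusted p was under 0.05. All within-pair differences are above 0, from 0.59 (Cmpk2, pair B) to 2.13 (Rsad2, pair B), and the pairs of Samd9l lie between 0.86 and 0.97.

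The 7 probe sets also varied together between litters. Trex1 KO B had the highest signal of the Trex1 KO animals on 7 of 7 probe sets, and Trex1 WT B the highest of the Trex1 WT animals on 6 of 7. The exception was Rsad2 probe set 1421008_at, where Trex1 WT C had 686 and Trex1 WT B had 623. The 7 probe sets stand for only 4 genes, and how often animal B was highest over all probe sets was not counted. Pearson correlations between the probe sets over the 6 arrays were at least 0.887, as a description that includes the difference between groups and the shared arrays.

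Markers of other cells gave the following beside these results. In whole tissue, fewer cells of a type and less RNA per cell cannot be told apart. Summed over 11 markers of monocytes and macrophages, the signal was 14648 to 19521 in Trex1 KO and 12151 to 18979 in Trex1 WT, and pair B was highest in both groups. Over 7 natural killer cell markers it was 965 to 2538 in Trex1 KO and 645 to 1023 in Trex1 WT, and over 7 neutrophil markers 568 to 1656 and 608 to 801, with Trex1 KO B highest in both lists. Within pairs A, B and C the Trex1 KO over Trex1 WT ratio of these sums was 1.04, 1.03 and 1.25 for macrophages, 1.31, 2.48 and 1.74 for natural killer cells, and 0.709, 2.44 and 2.14 for neutrophils, so the first 2 were higher in the Trex1 KO animal of every pair. The macrophage sum was higher in pairs A and B only with Lyz2 in it. Lyz2 had 6888, 9301 and 6832 in Trex1 KO animals A, B and C, against 5877, 7981 and 5049 in their Trex1 WT littermates. Csf1r, the next brightest, had 3886, 4728 and 4062 in Trex1 KO, against 4245, 6028 and 3966 in Trex1 WT. Gzma was the brightest natural killer marker on every array (log2 0.96). Ncr1 alone of that list had a negative log2 difference (-0.08). S100a8 and S100a9 were the brightest neutrophil markers on every array (log2 0.79 and 0.89). Csf3r and Mpo were higher in the Trex1 KO animal of every pair (log2 0.82 and 1.36), and Elane was lower (-1.48). Ngp and Cxcr2 had log2 differences of -0.59 and -0.38. Mpo, Elane and Cxcr2 were too dim to be tested. Of the macrophage, natural killer and neutrophil lists 10 of 11, 2 of 7 and 2 of 7 markers lay above the bacterial controls on every array. Siglech, Ccr9 and Spib, which mark plasmacytoid dendritic cells, never did, nor did the lymphocyte genes Cd3d, Cd3e, Cd4, Cd79a and Cd79b. Of the other lymphocyte markers, Cd8a reached 190 in Trex1 KO C, 171 in Trex1 WT C and 122 in Trex1 WT B, above the highest control. Cd3g exceeded it only in Trex1 WT C (75.2) and Ms4a1 only in Trex1 KO A. Ms4a1 had 82.0, 49.9 and 22.9 in the Trex1 KO animals, against 22.1, 19.4 and 19.4 in the Trex1 WT animals, with no overlap. The sums overlapped between groups for plasmacytoid dendritic cells, endothelial cells, fibroblasts and ventricular cardiomyocytes (4842 to 5412, 12976 to 15262, 46995 to 51487 and 319047 to 352827 in Trex1 KO, against 4793 to 6066, 12900 to 17348, 40051 to 51820 and 290587 to 370178 in Trex1 WT). The plasmacytoid sum was nearly all Tcf4, a gene that many cell types express (4547 to 5120 in Trex1 KO and 4454 to 5672 in Trex1 WT). The lymphocyte sums overlapped too, reaching 360 in Trex1 KO and 395 in Trex1 WT. The summed atrial markers were 28573 to 36237 in Trex1 KO and 11343 to 19378 in Trex1 WT. Nearly all of that sum was Nppa, the atrial natriuretic peptide gene, with 28145, 30449 and 35782 in the Trex1 KO animals, against 10934, 18483 and 19079 in the Trex1 WT animals (limma adjusted p = 0.126; with the block, 0.00886), while Myl7 and Myl4 overlapped between groups and Sln lay below the bacterial controls. In limma 0 members of the 9 marker lists passed without the block. At an unadjusted p under 0.05 there was 1 each for macrophages, natural killer cells, neutrophils, endothelial cells, fibroblasts and atrial cells. The part of these cells, and of RNA quality, in the differences of the 4 genes was not tested.

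The enzymes that work around viperin and Cmpk2 gave no calls. Of 18 tested nucleotide kinases and salvage enzymes 0 passed in limma (1 at an unadjusted p under 0.05), with a median log2 difference of -0.10, beside -0.02 over all 12808 genes, of which 0.312% rose and 0.039% fell. The member with the smallest p was Nme6, a nucleoside diphosphate kinase family member, with 404, 320 and 429 in Trex1 KO animals A, B and C, against 542, 510 and 624 in Trex1 WT animals A, B and C (log2 -0.53, limma adjusted p = 0.652). Of 24 tested genes of pyrimidine and deoxynucleotide pools 0 passed (1 at an unadjusted p under 0.05), with a median of 0.02. There the smallest p was that of Samhd1, a phosphohydrolase that degrades deoxynucleotides and restricts retroviruses. It had 762, 858 and 827 in Trex1 KO animals A, B and C, against 594, 633 and 470 in Trex1 WT animals A, B and C (log2 0.52, limma adjusted p = 0.506). Both genes separated the groups without passing. So did Ak1, Cmpk1, Dguok and Nme1 of the kinases, all lower in Trex1 KO, as was Nme6. In the pyrimidine and deoxynucleotide list Dctd and Nt5e were higher without overlap, as was Samhd1, and Dut was lower. All Trex1 KO arrays lay above all Trex1 WT arrays on 5.57% of the probe sets tested, and the share lying below was not counted.

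The closest relatives and suppliers, named after their values were seen as well, had log2 differences between -0.18 and -0.04. Cmpk1, the cytosolic counterpart of Cmpk2, averaged 2759 ± 252 in Trex1 KO and 3127 ± 42.2 in Trex1 WT (SD, n = 3 each). Its highest Trex1 KO signal was 3046 and its lowest Trex1 WT signal 3101, with no overlap (log2 -0.18, limma adjusted p = 0.955). Ctps, which makes the CTP that viperin uses, averaged 1886 ± 144 in Trex1 KO and 1943 ± 192 in Trex1 WT (log2 -0.04, limma adjusted p = 0.985). For Rsad1, another radical SAM protein, and Isg20l2, a nucleolar exonuclease, the log2 values were -0.04 and -0.11 (limma adjusted p = 0.988 and 0.970). A p that misses the threshold does not show equal levels.

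Relatives of the exonucleases and the iron-sulfur partners of viperin gave no calls either. Of 18 tested exonucleases related to Isg20 and Trex1 0 passed in limma (1 at an unadjusted p under 0.05), with a median of -0.02, and Exd2, a mitochondrial exonuclease, had the smallest p (log2 -0.42, adjusted p = 0.917). Of 13 radical SAM enzymes and iron-sulfur delivery factors 0 passed (1 at an unadjusted p under 0.05), with a median of 0.01. Ciao1, a subunit of the complex that delivers iron-sulfur clusters to cytosolic proteins including viperin, averaged 2904 ± 159 in Trex1 KO and 2395 ± 259 in Trex1 WT (SD, n = 3 each, log2 0.28, limma adjusted p = 0.871). Of 8 reported partners of viperin 0 passed (0 at an unadjusted p under 0.05). Mavs, the mitochondrial adaptor of RNA sensing, had the smallest p there (log2 -0.29, limma adjusted p = 0.955). With the block these 5 lists also had 0 calls in limma.

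Among 8 tested transcription factors of the interferon response 1 rose and 0 fell (over all genes 0.312% rose), and the log2 differences ran from -0.53 to 2.57 with a median of 0.10. Irf7, which amplifies interferon signalling, had 2930, 5615 and 3874 in Trex1 KO animals A, B and C, against 527, 716 and 760 in Trex1 WT animals A, B and C (log2 2.57, limma adjusted p = 0.000728). Irf9 and Stat2, named after their values were seen, separated the groups without passing, by 0.62 and 0.78 on the log2 scale (limma adjusted p = 0.222 and 0.613). Irf5 and Irf1, also named after their values were seen, were lower in the Trex1 KO animal of all 3 pairs, with log2 differences of -0.53 and -0.29, and did not pass either (limma adjusted p = 0.953 and 0.939, or 0.557 and 0.444 in the paired fit). Trex1 KO B was again the highest animal for Irf7.

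Of 17 other interferon-induced effectors that act on nucleic acids, 6 rose and 0 fell, where 0.312% of all genes rose, and the median was 0.57. The 3 that passed with the highest fitted differences were Oas3, Oasl2 and Oas1a, of the family that makes 2'-5' oligoadenylates or shares its fold. Oas3 had 244, 335 and 267 in Trex1 KO animals A, B and C, against 29.6, 27.6 and 24.4 in Trex1 WT animals A, B and C, the Trex1 WT values all below the highest bacterial control, so the size of its log2 difference (2.78, limma adjusted p = 0.00109) depends on the pseudocount. Oasl2 and Oas1a rose by 1.75 and 1.60 on the log2 scale (limma adjusted p = 0.00157 and 0.00292). With the block 7 of the 17 rose, where 0.531% of all genes did. Once the Actb ratio was in the fit 0 of the 17 rose, where 8 of all 27022 probe sets did.

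**Figure D3:**
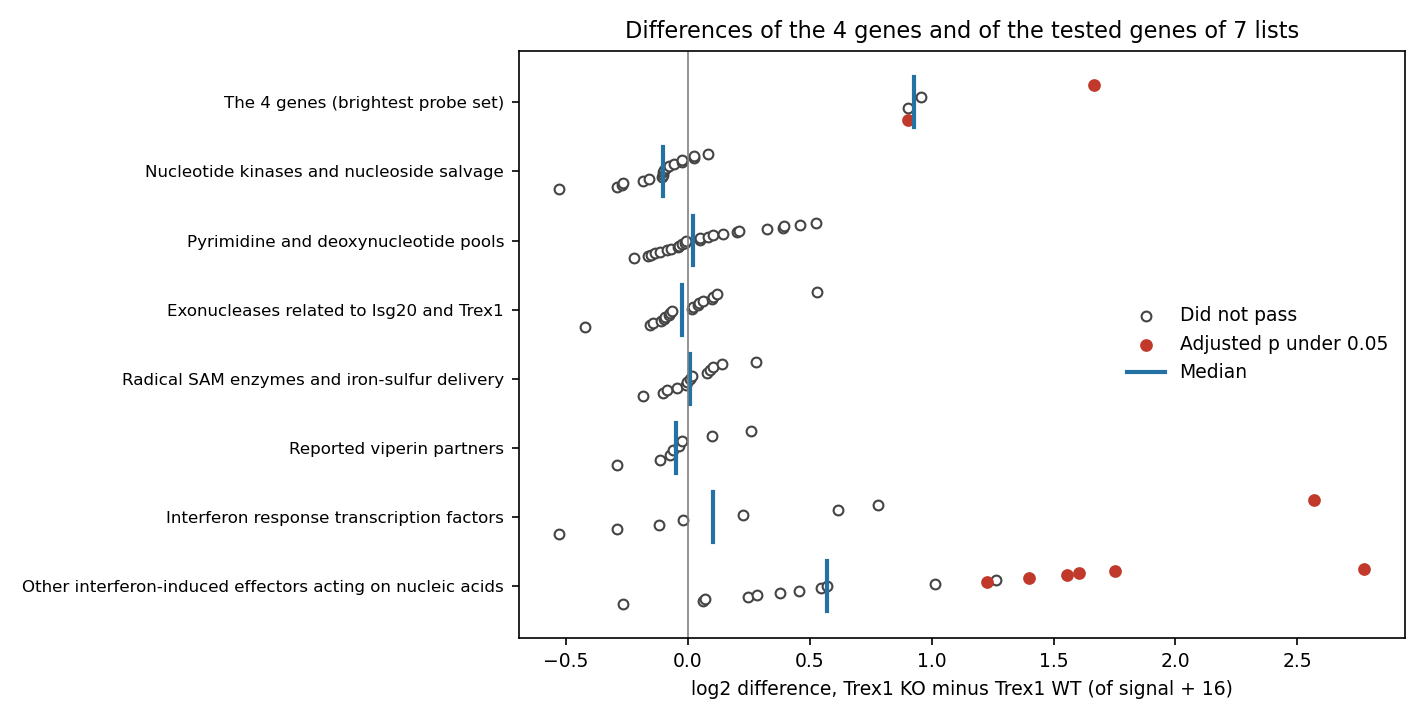
Log2 difference (Trex1 KO minus Trex1 WT, of signal + 16) of the 4 genes and of each tested gene in 7 lists, with red points for a limma adjusted p under 0.05 and blue bars for medians. The lists of nucleotide metabolism, exonucleases, radical SAM enzymes and viperin partners centre near 0 with no red point, and the interferon-induced effectors hold 6 red points.

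None of the genes around the 4 members on their chromosomes passed. In RefSeq's gene table no gene lies between Rsad2 and Cmpk2. The neighbours, taken as the 3 nearest genes with a probe set on each side of a member, were 18 genes, of which 9 were bright enough to test and 0 passed in limma (0 at an unadjusted p under 0.05, with the block 0 and 2). The nearest of them to Rsad2 other than Cmpk2, 4930549C15Rik, lay below the filter, with 37.3, 36.5 and 47.7 in the Trex1 KO animals, against 26.2, 21.0 and 13.0 in the Trex1 WT animals. Those groups did not overlap, and all 6 signals were below the highest bacterial control. Rnf144a, a ubiquitin ligase gene farther out on the same side, averaged 642 ± 107 in Trex1 KO and 609 ± 90.6 in Trex1 WT (SD, n = 3 each, log2 0.07, limma adjusted p = 0.981). Sox11, beyond Cmpk2, lay below the filter. Beside Isg20, the p53-induced exonuclease gene Aen averaged 1384 ± 35.1 in Trex1 KO and 1276 ± 122 in Trex1 WT (log2 0.12, limma adjusted p = 0.959). On the other side of Isg20, Acan averaged 85.1 ± 21.7 in Trex1 KO and 54.5 ± 41.9 in Trex1 WT (SD, n = 3 each). Within pairs A, B and C its log2 differences were -0.09, 2.23 and 0.10, with a signal of 8.31 in Trex1 WT B. Its log2 difference over all arrays, 0.74, was the highest of the tested neighbours. The lowest was Hapln3 at -0.92, with 14.3, 97.9 and 87.0 in the Trex1 KO animals, against 104, 112 and 139 in the Trex1 WT animals (limma adjusted p = 0.955 for both genes). Around Samd9l, Gm20559 had a log2 difference of 0.27 and Vps50 one of -0.06 (limma adjusted p = 0.917 and 0.979).

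**Figure D4:**
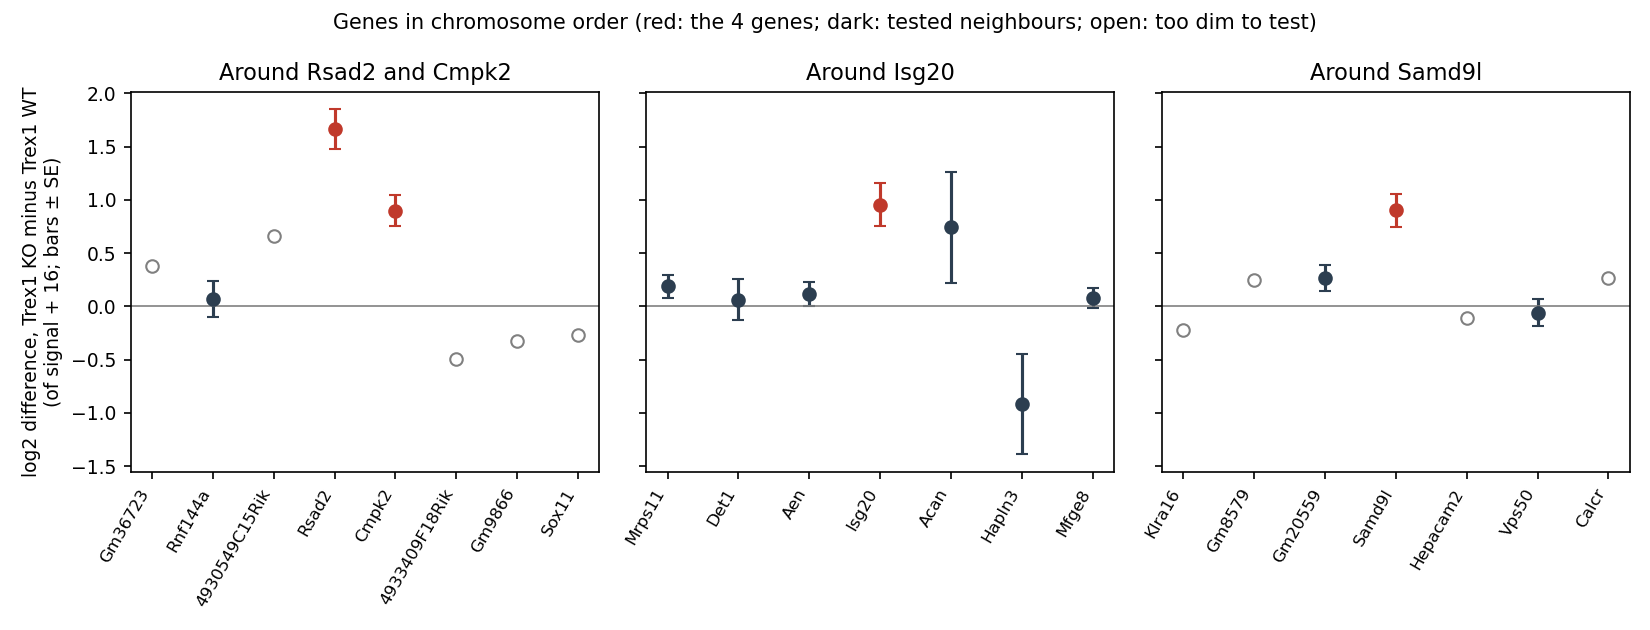
Log2 difference (Trex1 KO minus Trex1 WT, of signal + 16, ± SE) of genes in chromosome order around Rsad2 and Cmpk2, Isg20, and Samd9l, with the members in red, tested neighbours dark and genes below the filter open. Rsad2 at 1.67 and Cmpk2 at 0.90 stand near Rnf144a at 0.07, and Isg20 at 0.96 stands between Aen at 0.12 and Acan at 0.74, with Hapln3 at -0.92 beyond. Acan differed by 2.23 in pair B, but by -0.09 in pair A and 0.10 in pair C.

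The genes whose values followed each member most closely over the 6 arrays were found by Pearson correlation among the 12804 other genes tested. These correlations include the difference between groups and are given as a description. For Rsad2 they were Ifi213 (0.999), Trim34a (0.995) and Ifit1 (0.993), and all 3 rose in Trex1 KO (limma adjusted p of 0.000354 to 0.00925). For Samd9l they were Thap3 (0.992), Trim34a (0.991) and Gbp3 (0.990), of which Trim34a rose. For Cmpk2 they were Olfr870 (0.995), Zbp1 (0.990) and Mastl (0.990), of which Zbp1 rose (limma adjusted p = 0.0256). For Isg20 they were Morn4 (0.991), Slc15a3 (0.990) and Rpgrip1 (0.989), and none of these passed (limma adjusted p of 0.668 to 0.955).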

How the data were processed

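Total RNA of heart ventricle from 3 Trex1 KO and 3 Trex1 WT mice was measured on 1 array per animal. The authors deposited 1 linear intensity per probe set and array; the submitters' processing notes name MAS5, whose version and settings they leave out. Each array's mean, trimmed by 2% at each end, was 500.0, so no further scaling was applied. Groups came from the sample titles, and the series' design text names the littermate pairs. Deviations from group means correlated at 0.151, 0.192 and 0.147 within pairs, over 27022 probe sets, and between -0.161 and 0.0101 otherwise.

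Values were taken as log2(signal + 16). Of 45037 probe sets that are not array controls, those with a mean at or above the 40th percentile entered limma 3.58.1 under R 4.3.3 (lmFit, eBayes with an intensity trend, two-sided, Benjamini-Hochberg over all 27022, threshold 0.05). Folds on this scale understate changes of dim probe sets. Symbols came from the platform annotation, updated by Entrez identifier (34741 of 34945 single-symbol probe sets matched), and the brightest probe set stood for a gene. The alternatives were other pseudocounts, filters, quantile normalization, no trend, the littermate block, the Actb ratio as a covariate, left-out arrays or pairs, and the mean over a gene's probe sets.

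The members and gene lists were chosen with earlier results of these data known. Named genes were the members, Trex1, Rag2, the neighbours, the 3 closest genes by correlation and, from each list, the 3 largest that passed or else the smallest p; Cmpk1, Ctps, Rsad1, Isg20l2, Irf1, Irf5, Irf9 and Stat2 were added outside this rule after their values were seen. For 11 list symbols no single-symbol probe set was used here. Nothing in the labels says more of the animals. The p-values set the difference between groups against the spread within groups of these 6 animals, as moderated by eBayes over all probe sets tested.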

Additional observations from a re-analysis of the deposited data

How the results depend on the processing

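Rsad2, Cmpk2, Isg20 and Samd9l were higher in Trex1 KO under every alternative run, and the calls changed as follows. Of the 7 probe sets, 5 passed, against 1 without the intensity trend, 0 with the Actb ratio, 2 without pair A, 2 without pair C and 3 to 6 without single arrays. The brightest Rsad2 probe set (1436058_at) did not pass, in the same order of settings, with log2 differences of 1.67, 2.13, 1.73 and 1.57. Rsad2 probe set 1421009_at passed without the trend and without pair A or C (limma adjusted p = 0.0461, 0.0261 and 0.0416). Probe set 1421008_at passed without pair A or C (limma adjusted p = 0.0261 and 0.0445). The brighter Cmpk2 probe set did not pass with a pseudocount of 1 (0.92), no filter (0.90), quantile normalization (0.90), no trend (0.90), the Actb ratio (1.29), or without pair A (0.83) or C (0.81), and spanned 0.81 to 1.06 without single arrays. The dimmer one passed with a pseudocount of 1, no filter and quantile normalization (limma adjusted p = 0.0121, 0.0252 and 0.0142). It did not pass with no trend, with the Actb ratio, or without pair A or C. Isg20 (0.96) and Samd9l (0.90) passed with the replicate block. Samd9l also passed with a pseudocount of 64 (0.87) and without pair B (0.92), and spanned 0.78 to 1.04 without single arrays. The 7 list genes that rose became 4 without the trend, 0 with the Actb ratio, 3 without pair A and 4 without pair C. Over all probe sets, 59 rose and 7 fell, against 105 and 16 with the block, 24 and 4 without the trend, 8 and 1 with the Actb ratio, 23 and 0 without pair A, 54 and 12 without pair B, 34 and 4 without pair C, and 33 to 85 and 3 to 9 without single arrays. Without Trex1 WT A and B, the arrays with the highest 18S signal (chosen after seeing the data, the lone Trex1 WT array being assumed to vary like the others), 5 of 7 probe sets passed. Leaving out pairs leaves fewer samples; the cause of the other changes was not tested. The block changed no other call among the 4 genes, and the call of Slfn8 was added in the lists. Signals of the 4 genes lay above the bacterial controls on every array.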
